A study of Homo sapiens with 6 samples.

Results

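The aminoacyl tRNA synthetases are the enzymes that load each tRNA with its amino acid. The genes described here were taken by symbol from the deposited gene count table: 20 genes for cytosolic enzymes, 16 for mitochondrial enzymes, and AIMP1 and AIMP2, which are scaffold proteins rather than enzymes. These 38 genes were found among the 58735 genes of the table, and all 38 had enough reads to be tested. LoVo is an established human colorectal cancer (CRC) cell line. The cells were transfected with a negative control siRNA (si-NC, 3 libraries) or with an siRNA against the splicing factor SRSF11 (si-SRSF11, 3 libraries), and total RNA was read by paired-end sequencing (150 bp reads). Neither the labels nor the methods name any other treatment of these cells. They do not say which SRSF11 siRNA was used for sequencing or how long after transfection the RNA was taken, and the comparison stands for 1 cell line. The comparison asks which transcripts differ in level when SRSF11 is reduced, and here how the synthetases of the cytosol compare with those of the mitochondrion.

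Each synthetase recognizes 1 amino acid and the tRNAs that carry it, except EPRS, which joins the glutamate and proline enzymes. The enzymes fall into class I and class II by the fold of their catalytic domain. Cytosolic and mitochondrial enzymes are mostly made from separate nuclear genes, and only KARS (lysine) and GARS (glycine) supply both compartments from a single gene. Several cytosolic enzymes are held with AIMP1, AIMP2 and EEF1E1 in the multisynthetase complex. When charged tRNA runs short, the kinase GCN2 (EIF2AK4) senses uncharged tRNA and raises translation of the transcription factor ATF4, whose known targets include many cytosolic synthetase genes through a C/EBP-ATF response element in DNA.

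Because that element links cytosolic synthetase promoters to ATF4, the promoter letters are shown first. RefSeq promoters (GRCh38.p14, 250 bases before to 50 after each start) were matched for 21 members, 11 cytosolic and 10 mitochondrial. A member was matched only if its symbol had exactly 1 entry, a limit not set on the promoters behind the shares of all promoters below. The core letters TGATGCAA, searched on both strands, were in 4 of the 11 cytosolic promoters, in 0 of the 10 mitochondrial promoters, and in 0.866% of all 35116 RefSeq promoters of that length. The looser form TGATGNAAN, which contains the first motif with 1 letter freed and 1 added, was in 3.61% of all promoters and, among the members, in the same 4 and in mitochondrial YARS2. The 31 bases around each match are given on the strand of the gene, with the letters of TGATGNAAN or its reverse complement in capitals:
AARS: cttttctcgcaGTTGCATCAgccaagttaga
MARS: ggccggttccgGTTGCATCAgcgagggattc
IARS: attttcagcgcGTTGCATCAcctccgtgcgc
NARS: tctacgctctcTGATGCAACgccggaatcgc
YARS2: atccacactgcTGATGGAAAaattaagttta
The AARS window lies at chr16:70289675-70289705 on the minus strand, with the match 188 bases before the start. The MARS window lies at chr12:57488052-57488082 on the plus strand, with its match beginning 5 bases before the start and running across it. The IARS window lies at chr9:92293692-92293722 on the minus strand, with its match beginning 14 bases before the start. The NARS window lies at chr18:57621803-57621833 on the minus strand with its match beginning 14 bases after the start, and the YARS2 window at chr12:32756075-32756105 on the minus strand, 197 bases before the start. These are matches of letters, and nothing was measured at the sites.

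The libraries held 14369525 to 16685719 counts each. SRSF11, the targeted gene, had 87.6, 84.3 and 87.5 CPM (counts scaled to a common library size, here by the trimmed mean of M-values, TMM) in si-NC and 50.4, 48.5 and 49.5 CPM in si-SRSF11, so the knockdown left 57.2% of the transcript (log2 fold change -0.81, SE 0.054, adjusted p = 6.1e-10). Unless another setting is named beside it, an adjusted p is from edgeR's quasi-likelihood test over the 15801 genes tested, with Benjamini-Hochberg adjustment. The epithelial markers EPCAM (239 CPM in si-NC), CDH1 (227 CPM) and VIL1 (264 CPM) were well expressed, while KRT20 (0.701 CPM) and CEACAM5 (1.07 CPM) were near 0, and of the markers of other cell types PTPRC, CD3E and ALB had mean levels of 0 CPM in si-NC, PECAM1 0.686 CPM and COL1A1 12.7 CPM. Chi-square per degree of freedom between libraries was 2.09 to 5.51 within a group and 12.6 to 16 between groups, so no library was a copy of another. The study describes the RNA samples as pairs of independent samples, without saying how they were paired or whether they came from separate cultures or transfections. The p-values therefore measure only the spread between these samples, which may in part be technical.

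Of the 38 genes, 16 passed an adjusted p of 0.05 (42.1%), against 24.6% of all genes tested. Of these, 9 of 38 rose, against 13.2% of all genes, and 7 of 38 fell, against 11.4% of all genes. The cytosolic genes moved both ways, with 6 of 20 lower, 5 higher and 9 not past the test. The mitochondrial genes that passed moved 1 way only, with 4 of 16 higher, 0 lower and 12 not past the test. The share that passed was also taken among genes of like level. Of tested genes within the cytosolic members' range of mean expression (57.9 to 599 CPM), 40.7% passed, beside 11 of 20 members (55.0%), and of those within the mitochondrial members' range (2.63 to 190 CPM), 28.2% passed, beside 4 of 16 (25%). The mitochondrial share is therefore near its background. In size, 0 of the 38 genes differed by more than 1 on the log2 scale, as 173 of all genes tested did.

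**Figure D1:**
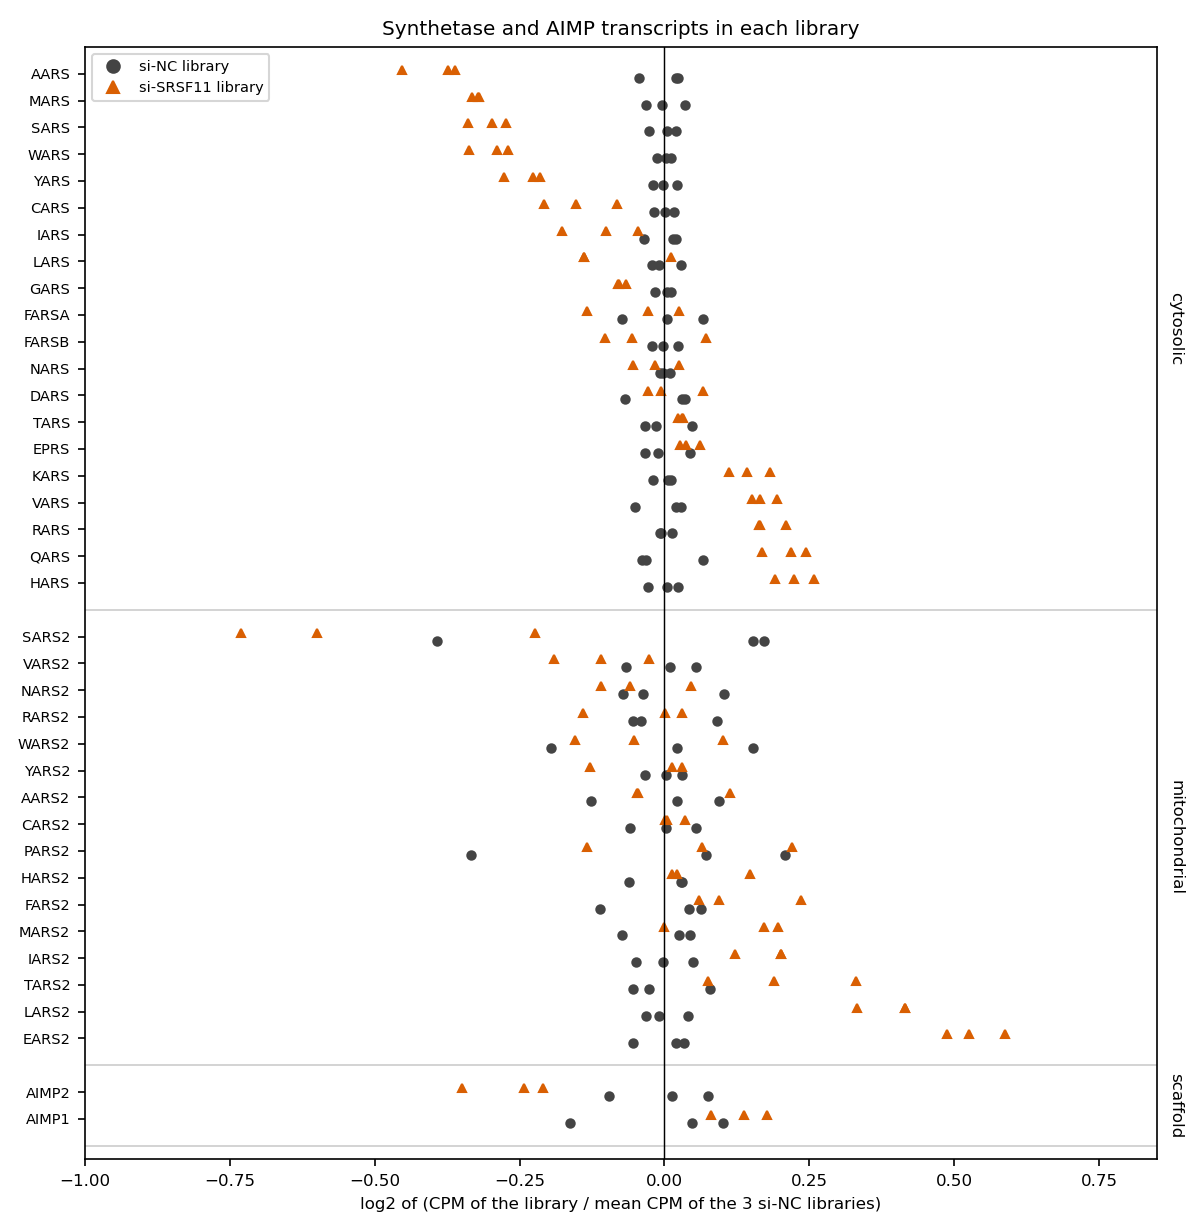
Level of each of the 38 genes in each library, as log2 of its CPM over the mean of the 3 si-NC libraries (x axis), with genes as lines grouped by compartment, si-NC libraries as circles and si-SRSF11 libraries as triangles. The triangles of AARS, MARS, SARS, WARS and YARS lie left of all circles, those of EARS2 and LARS2 lie right of them, and SARS2 and PARS2 scatter most.

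Among the cytosolic enzymes, the falls were led by AARS, the alanyl-tRNA synthetase. AARS (chr16:70252295-70289543 on GRCh38, minus strand) was at 458, 457 and 438 CPM in si-NC and 330, 351 and 348 CPM in si-SRSF11. Every si-SRSF11 library was below every si-NC library, and the means of 451 ± 11.6 and 343 ± 11.4 CPM (SD, n = 3 each) gave a log2 fold change of -0.40 (SE 0.046, adjusted p = 1.5e-06). AARS transcript was thus at 76.0% of the control level, and no other gene shares its annotated exon bases.

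MARS, the methionyl-tRNA synthetase and a member of the multisynthetase complex, was at 447, 426 and 435 CPM in si-NC and 349, 349 and 346 CPM in si-SRSF11. The groups did not overlap, and the log2 fold change was -0.32 (SE 0.044, adjusted p = 1.3e-05). Other genes overlap 13.3% of the exon bases of MARS, among them DDIT3, an ATF4 target that also fell (log2 fold change -0.49, adjusted p = 1.2e-07). The sources do not say whether the counting used strand or how shared reads were assigned, and the part of this overlap in the MARS value was not tested.

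SARS, the seryl-tRNA synthetase, had 671, 650 and 664 CPM in si-NC and 523, 547 and 539 CPM in si-SRSF11. The gap between the groups was far wider than the spread within them, with means of 662 ± 10.7 and 536 ± 12.1 CPM and a log2 fold change of -0.30 (SE 0.043, adjusted p = 2.2e-05). SARS was also the most abundant synthetase transcript per length.

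The tryptophan and tyrosine enzymes fell as well. WARS, which charges tRNA with tryptophan and is also known as an interferon-inducible gene, had 372, 368 and 374 CPM in si-NC and 308, 304 and 294 CPM in si-SRSF11 (log2 fold change -0.30, SE 0.045, adjusted p = 3.9e-05). YARS, the tyrosyl-tRNA synthetase, had 538, 523 and 529 CPM in si-NC and 437, 453 and 457 CPM in si-SRSF11 (log2 fold change -0.24, SE 0.044, adjusted p = 0.00037). In both genes the 3 si-SRSF11 libraries lay below the 3 si-NC libraries. Other genes overlap 10.6% of the exon bases of WARS, among them WDR25 (log2 fold change -0.18, adjusted p = 0.21). The part of this overlap in the WARS value was not tested. The smallest of the 6 falls was that of CARS, the cysteinyl-tRNA synthetase (log2 fold change -0.15, SE 0.048, adjusted p = 0.028), whose call was lost without any 1 of the si-NC libraries (adjusted p 0.072 to 0.095) and without si-SRSF11 replicate 2 (adjusted p = 0.14).

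The cytosolic rises had log2 fold changes of 0.15 to 0.22. QARS, the glutaminyl-tRNA synthetase and a complex member, had 230, 229 and 247 CPM in si-NC and 279, 264 and 274 CPM in si-SRSF11, with means of 235 ± 9.77 and 272 ± 7.32 CPM. The groups did not overlap (log2 fold change 0.21, SE 0.048, adjusted p = 0.0024). HARS, the histidyl-tRNA synthetase, had 75.9, 74.2 and 77.0 CPM in si-NC and 86.4, 88.4 and 90.5 CPM in si-SRSF11, again without overlap (log2 fold change 0.22, SE 0.051, adjusted p = 0.0024). VARS (valine, log2 fold change 0.17, adjusted p = 0.0082) and RARS (arginine, 0.18, adjusted p = 0.021) also rose. The VARS call was lost without si-NC replicate 2 (adjusted p = 0.056), and the RARS call without any 1 of the si-NC libraries (adjusted p 0.054 to 0.077) and under library-size scaling, the DESeq2 test and no filter on low counts (adjusted p 0.052 to 0.06).

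KARS and GARS each supply both compartments. KARS had 227, 231 and 231 CPM in si-NC and 253, 248 and 260 CPM in si-SRSF11, a non-overlapping rise (log2 fold change 0.15, SE 0.046, adjusted p = 0.022) that did not pass without any 1 of the si-NC libraries (adjusted p 0.053 to 0.1) or with library-size scaling (adjusted p = 0.072). GARS had 376, 382 and 384 CPM in si-NC and 360, 360 and 364 CPM in si-SRSF11. The GARS libraries did not overlap either, yet the difference did not pass (log2 fold change -0.08, 95% interval -0.17 to 0.02, adjusted p = 0.23). The other cytosolic genes short of the threshold were IARS (isoleucine, log2 fold change -0.11), LARS (leucine, -0.09), FARSA and FARSB (the subunits of the phenylalanine enzyme, -0.04 and -0.03), NARS (asparagine, -0.02), DARS (aspartate, 0.01), TARS (threonine, 0.03) and EPRS (the fused glutamate and proline enzyme, 0.04). IARS (adjusted p = 0.11) passed as lower with library-size scaling (adjusted p = 0.035) and without si-SRSF11 replicate 1 (adjusted p = 0.027). Groups without overlap were found for 13 of 20 cytosolic genes, 8 lower and 5 higher, for 3 of 16 mitochondrial genes, all higher, and for 38.8% of all genes tested.

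**Figure D2:**
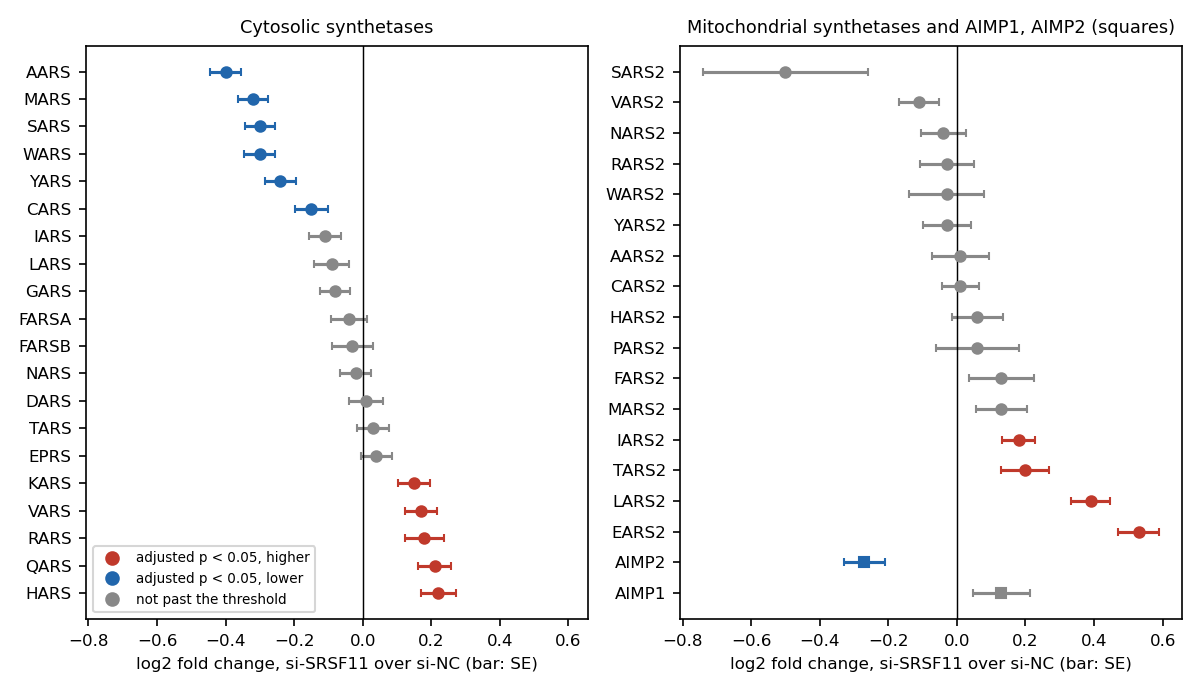
log2 fold change of si-SRSF11 over si-NC (x axis, bars SE from the quasi-likelihood fit) for the 20 cytosolic genes on the left and the 16 mitochondrial genes and AIMP1 and AIMP2 (squares) on the right, with color giving the test result. Cytosolic values run from -0.40 to 0.22 with calls at both ends, and mitochondrial values from -0.50 to 0.53 with calls only above 0.

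In the mitochondrial group, EARS2 gave the clearest rise. EARS2 (chr16:23522014-23557731 on GRCh38), the glutamyl-tRNA synthetase of mitochondria, had 42.8, 40.6 and 43.1 CPM in si-NC and 59.1, 63.3 and 60.7 CPM in si-SRSF11. All si-SRSF11 libraries were well above all si-NC libraries, with means of 42.2 ± 1.37 and 61.0 ± 2.11 CPM, so that EARS2 stood at 145% of control (log2 fold change 0.53, SE 0.060, adjusted p = 9e-07). LARS2, the leucyl-tRNA synthetase, had 51.2, 53.9 and 52.0 CPM in si-NC and 66.0, 69.9 and 69.9 CPM in si-SRSF11. Its groups were also apart (log2 fold change 0.39, SE 0.057, adjusted p = 2.6e-05).

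IARS2 and TARS2 rose less. IARS2, the isoleucyl-tRNA synthetase and the most abundant mitochondrial synthetase transcript, had 184, 172 and 178 CPM in si-NC and 194, 205 and 205 CPM in si-SRSF11, without overlap (log2 fold change 0.18, SE 0.048, adjusted p = 0.0097; adjusted p = 0.062 without si-NC replicate 2). TARS2, the threonyl-tRNA synthetase, had 45.1, 41.1 and 41.9 CPM in si-NC and 45.0, 48.7 and 53.7 CPM in si-SRSF11. The lowest si-SRSF11 library lay just under the highest si-NC library, the log2 fold change was 0.20 (SE 0.070, adjusted p = 0.035), and the call held in 8 of 14 alternative settings. It was lost without si-NC replicate 2 or 3 or si-SRSF11 replicate 2 or 3 (adjusted p 0.069 to 0.18), with library-size scaling (adjusted p = 0.075) and in the DESeq2 test (adjusted p = 0.077).

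The next mitochondrial genes by adjusted p did not pass. SARS2, the seryl-tRNA synthetase, had few reads, with 34, 52 and 54 counts in si-NC and 29, 33 and 43 counts in si-SRSF11. Its fold change was the lowest of all 38 genes but imprecise and overlapping (log2 fold change -0.50, SE 0.24, adjusted p = 0.13), and 84.0% of the 100-nucleotide windows of its principal transcript occur with the same sequence in transcripts of other annotated genes, and how reads there were assigned is not stated. VARS2 had 72.3, 68.7 and 74.7 CPM in si-NC and 63.0, 70.6 and 66.6 CPM in si-SRSF11, overlapping groups with a log2 fold change of -0.11 (SE 0.058, adjusted p = 0.19), and it shares 22.0% of its exon bases with GTF2H4. The other 10 genes had log2 fold changes between -0.04 (NARS2) and 0.13 (FARS2, and MARS2 alike); RARS2, WARS2 and YARS2 were each at -0.03, AARS2 and CARS2 at 0.01, and PARS2 and HARS2 at 0.06.

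HARS and HARS2 are head-to-head neighbours on chromosome 5. Their RefSeq starts lie 85 bases apart, and the stretch between them is shown because transcription from these starts runs in opposite directions, away from it. In the gene annotation of the count table HARS reaches to 140691862 and HARS2 begins at 140691426, so the annotated genes overlap. It covers chr5:140691370-140691455 (GRCh38.p14, plus strand, 59.3% G or C), and the capitals at its ends mark the RefSeq start of HARS on the minus strand and of HARS2 on the plus strand:
HARS to HARS2: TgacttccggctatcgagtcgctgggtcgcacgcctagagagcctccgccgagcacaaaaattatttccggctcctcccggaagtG
HARS rose, as given above, while HARS2 had 27.6, 29.3 and 29.4 CPM in si-NC and 29, 29.2 and 31.9 CPM in si-SRSF11. The HARS2 groups overlapped (log2 fold change 0.06, SE 0.075, 95% interval -0.09 to 0.22, adjusted p = 0.59). The difference between the neighbours was not tested. In the annotation, HARS shares 19.6% of its 100-nucleotide windows with HARS2 and WDR55, and HARS2 shares 11.9% of its own. WDR55 had a log2 fold change of 0.18 (adjusted p = 0.05), and the part of shared reads in the HARS value was not tested.

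The same amino acid could be compared across compartments in 17 gene pairs over 16 amino acids, with EPRS set beside both EARS2 and PARS2 and each FARS subunit beside FARS2. In 12 of the 17 pairs the cytosolic fold change was below the mitochondrial one. The pairs that share EPRS or FARS2 are all among these 12, so the pairs are not independent. In 6 pairs the cytosolic gene fell and its mitochondrial counterpart did not pass (alanine, cysteine, methionine, serine, tryptophan and tyrosine). In 3 pairs only the cytosolic gene rose (histidine, arginine and valine), in 4 only the mitochondrial gene rose (isoleucine, leucine, threonine and glutamate), and in the other 4 neither passed. There were 0 pairs in which both genes passed. The difference within a pair was not tested, and a gene that missed the threshold is not thereby shown to be level.

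**Figure D3:**
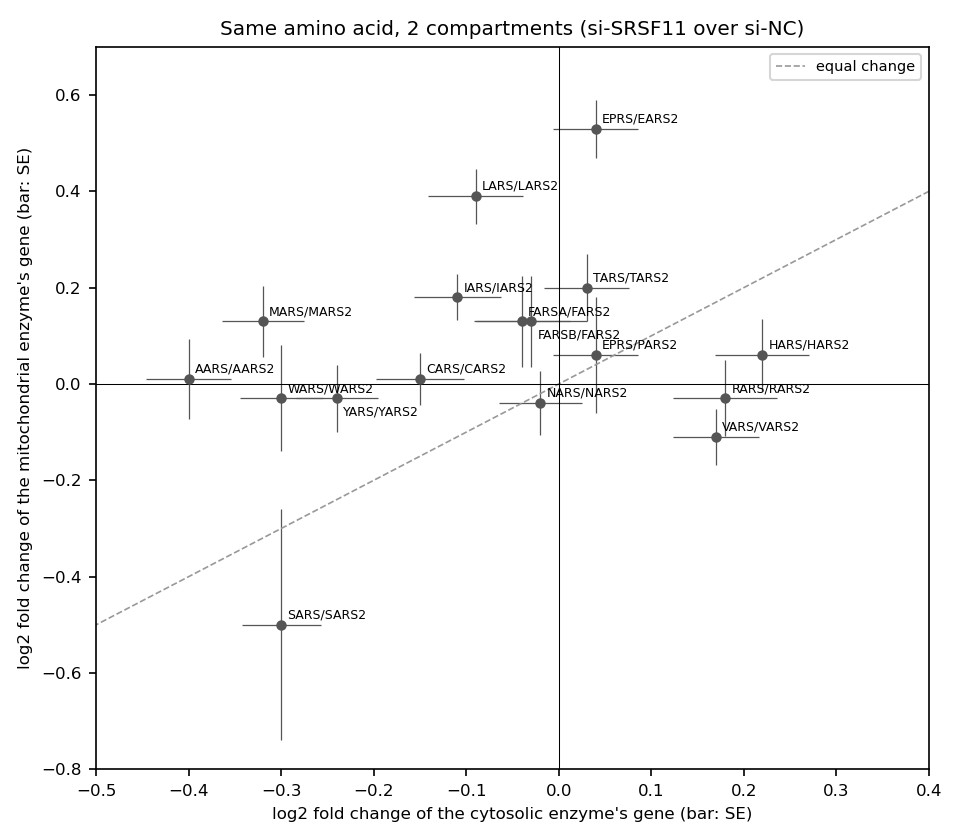
log2 fold change of the cytosolic gene (x axis) against that of the mitochondrial gene for the same amino acid (y axis), with SE bars and a dashed line of equal change, for 17 pairs. Of these, 12 lie above the line, and SARS/SARS2 has the widest bar (SE 0.24 for SARS2).

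Grouped by role, the multisynthetase complex enzymes (EPRS, IARS, LARS, MARS, QARS, KARS, RARS and DARS) held 3 of the 5 cytosolic rises (QARS, KARS and RARS) and 1 fall (MARS), with a median log2 fold change of 0.03. The 12 cytosolic enzymes outside the complex held 2 rises and 5 falls, with a median of -0.06. Of class I genes of both compartments, 10 of 19 passed (52.6%, 6 higher and 4 lower), and of class II genes 5 of 17 (29.4%, 3 higher and 2 lower), beside 24.6% of all genes tested. EPRS is of both classes and was counted in class I. The difference between the classes was not tested. Medians over both compartments lay close to that of all genes tested, 0.00, at -0.03 for cytosolic and 0.04 for mitochondrial genes.

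Of the scaffolds, AIMP2 fell and AIMP1 did not pass. AIMP2 had 81.0, 75.1 and 84.5 CPM in si-NC and 67.8, 62.9 and 69.4 CPM in si-SRSF11, groups without overlap (log2 fold change -0.27, SE 0.059, adjusted p = 0.0018). AIMP1 had 26.8, 25.9 and 22.3 CPM in si-NC and 27.5, 26.5 and 28.3 CPM in si-SRSF11; the groups overlapped, and it did not pass (log2 fold change 0.13, SE 0.083, adjusted p = 0.26). AIMP2 shares 38.5% of its windows with EIF2AK1, a gene with a log2 fold change of 0.05 (adjusted p = 0.54). EEF1E1, the third non-enzyme subunit of the complex, was at 11.7 ± 0.795 CPM in si-NC and 10.4 ± 1.33 CPM in si-SRSF11 (log2 fold change -0.17, adjusted p = 0.33).

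Levels were compared between genes per length, as TPM (counts divided by gene length and scaled to a fixed sum in each library). The cytosolic sum was 3300, 3190 and 3230 TPM in si-NC and 2880, 2840 and 2800 TPM in si-SRSF11. The mitochondrial sum was 509, 493 and 500 TPM in si-NC and 507, 514 and 506 TPM in si-SRSF11. The cytosolic sums thus separated the groups, at 0.876 of control, while the mitochondrial sums overlapped, at 1.02 of control. TPM shares a fixed total among genes, and the genes of the mitochondrial chromosome took 24.4 to 25.1% of it in si-NC and 27.9 to 28.7% in si-SRSF11. Per length but on the TMM scale, the ratios were 0.928 for the cytosolic and 1.08 for the mitochondrial sum. Of all counts, not per length, the mitochondrial genes took 0.0727, 0.0709 and 0.0716% in si-NC and 0.0748, 0.0773 and 0.0766% in si-SRSF11. By that measure the groups did not overlap. The size of each shift, and whether the mitochondrial groups overlapped, thus depended on the measure. In bulk RNA, a transcript held by fewer of the cells and less of it in each cell cannot be told apart. These measures are relative within a library and do not give the amount of RNA per cell.

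The ratio of the cytosolic to the mitochondrial sum within a library does not depend on scaling. It was 6.5, 6.47 and 6.46 in si-NC and 5.67, 5.53 and 5.54 in si-SRSF11, a description over chosen members that carries no test. The si-SRSF11 libraries all lay below the si-NC libraries, with means of 6.48 ± 0.0186 and 5.58 ± 0.0816. Without KARS and GARS, which count for both compartments, the ratio went from 5.59 to 4.75, and with the length of the principal transcript in place of all exons from 7.70 to 6.61.

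Single genes differed widely in their level. In si-NC the cytosolic order ran from SARS (519 TPM) through AARS (302 TPM), GARS (276 TPM) and FARSA (220 TPM) to HARS (29 TPM). The mitochondrial order ran from IARS2 (129 TPM) and YARS2 (49.1 TPM) down to SARS2 (2.86 TPM). How reads in the shared windows of SARS2 (84.0%) were assigned is not stated, so its place in this order is uncertain. The 6 cytosolic genes that fell summed to 1430 TPM in si-NC and 1090 TPM in si-SRSF11, and their share of the cytosolic sum went from 44.1% to 38.4%. The 5 that rose summed to 554 and 591 TPM, and the 9 not past the test to 1260 and 1160 TPM. These sets were formed by the result of the same comparison, so the direction of the first and second sums follows from that choice. The third depends on the scale. On the TMM scale these 9 genes had log2 fold changes from -0.11 (IARS) to 0.04 (EPRS). There DARS, EPRS and TARS were above 0 and the rest below. In TPM, DARS (83.1 to 79.1), EPRS (104 to 101) and TARS (127 to 122) were lower too.

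**Figure D4:**
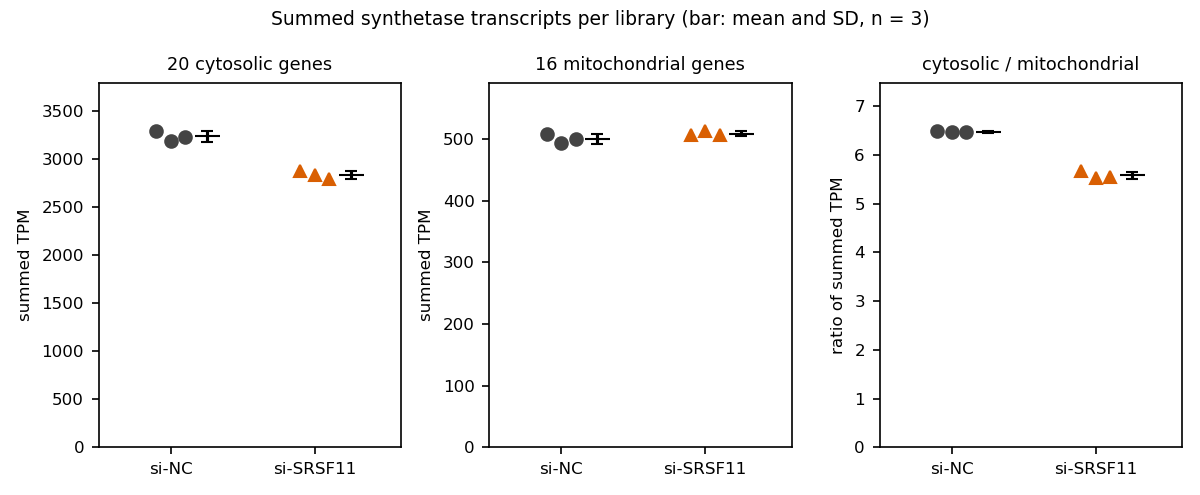
Summed TPM of the 20 cytosolic genes, summed TPM of the 16 mitochondrial genes, and the ratio of these sums (y axes, from 0) in each si-NC library (circles) and si-SRSF11 library (triangles), with mean and SD beside them. In TPM, the cytosolic sum and the ratio separate the groups (3240 to 2840 TPM, and 6.48 to 5.58), and the mitochondrial sum does not (501 and 509 TPM).

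Set beside the promoter letters above, the 4 cytosolic genes with TGATGCAA had log2 fold changes of -0.40 (AARS), -0.32 (MARS), -0.11 (IARS) and -0.02 (NARS), with 2 lower and 2 not past the test. The 7 cytosolic genes whose matched promoter lacked it (EPRS, FARSA, FARSB, HARS, KARS, QARS and RARS) ran from -0.04 to 0.22, with 4 higher and 0 lower. Of the 6 cytosolic genes that fell, SARS, WARS, YARS and CARS had no promoter entry matched, so 4 of the 6 falls are in neither set. With 11 promoters this is a description, and no match in this window says only that these letters are not in it.

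Of the GCN2-ATF4 response genes, 15 of 34 fell, against 11.4% of all genes tested, and 4 rose, against 13.2%. This list also holds genes that act upstream of ATF4. They are the eIF2 kinase genes EIF2AK1, EIF2AK2, EIF2AK3 and EIF2AK4, and EIF2S1, which encodes eIF2 alpha. Their median log2 fold change was -0.13. No share among genes of like level was taken for this list, and of tested genes at 57.9 to 599 CPM 40.7% passed in either direction. VLDLR and CBS had too few counts to be tested. DDIT3 (CHOP, a stress transcription factor), PPP1R15A (a phosphatase subunit acting on eIF2 alpha, log2 fold change -0.44, adjusted p = 2.1e-07), DDIT4 (an inhibitor of mTORC1 signalling, -0.39, adjusted p = 2.3e-06) and ATF3 (-0.46, adjusted p = 4.2e-06) all fell. ASNS, the asparagine synthetase, went from 24.3 ± 2.35 to 16.5 ± 0.252 CPM (log2 fold change -0.56, adjusted p = 0.00012), although 79.4% of its windows are shared with another annotated gene that had 3 to 12 counts. ATF4 itself was at 634, 627 and 659 CPM in si-NC and 678, 671 and 699 CPM in si-SRSF11, groups that did not overlap, and it did not pass (log2 fold change 0.09, adjusted p = 0.13). EIF2AK4, the GCN2 kinase, had a log2 fold change of 0.10 (adjusted p = 0.26). CHAC1, also known as an ATF4 target, was among the 4 that rose (log2 fold change 0.22, adjusted p = 0.0057), with SLC38A2, EIF2AK2 and EIF2S1. The EIF2S1 call (adjusted p = 0.041) was kept in 3 of 14 alternatives. It was lost without si-NC replicate 1, 2 or 3 or si-SRSF11 replicate 1 or 2 (adjusted p 0.087 to 0.16), and under every other scaling, the DESeq2 test, no filter on low counts and protein-coding genes only (adjusted p 0.05 to 0.13). These 4 were named after their values were seen.

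The partners of tRNA charging (editing and export factors, elongation factors and related enzymes) had 6 of 21 higher, against 13.2% of all genes tested, and 3 lower, against 11.4%, with a median log2 fold change of 0.04. The count of 3 went to 1 without si-NC replicate 3 or si-SRSF11 replicate 1. TARSL2, a threonyl-tRNA synthetase paralog of the cytosol, had 8.69, 7.70 and 8.60 CPM in si-NC and 13.3, 13.7 and 13.1 CPM in si-SRSF11 (log2 fold change 0.68, SE 0.11, adjusted p = 0.00012). This fitted value was above that of each of the 38 genes, from a low level. XPOT, the exporter of tRNA from the nucleus, fell from 359 ± 10.5 to 301 ± 9.32 CPM (log2 fold change -0.26, adjusted p = 0.00032). TSFM, the mitochondrial elongation factor Ts (log2 fold change 0.33, adjusted p = 0.0031), MTFMT, which formylates mitochondrial initiator tRNA (0.29, adjusted p = 0.0062, and 0.061 without si-NC replicate 1), and EEF1A2 (0.23, adjusted p = 0.00063), which delivers charged tRNA to the ribosome, rose. EEF1G was listed at 0 to 1 counts and was not tested, and 93.4% of its windows are shared with other annotated genes.

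The tRNA processing and modification genes had 13 of 58 higher, against 13.2% of all genes tested, 5 lower, against 11.4%, and a median log2 fold change of 0.07. The 13 became 7 with library-size scaling and with the DESeq2 test, and 6 without si-NC replicate 3. POP1, a subunit of RNase P that trims the leader of tRNA precursors, rose from 19.6 ± 0.465 to 32.5 ± 1.10 CPM (log2 fold change 0.73, adjusted p = 4.9e-07). SSB, the La protein that binds new tRNA ends, rose (0.44, adjusted p = 4e-06), and so did TRMT10C, a subunit of mitochondrial RNase P (0.50, adjusted p = 0.00022). TSEN15, a tRNA splicing endonuclease subunit (-0.37, adjusted p = 0.00017), and ADAT3, a tRNA deaminase subunit (-0.51, adjusted p = 0.0014), fell.

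**Figure D5:**
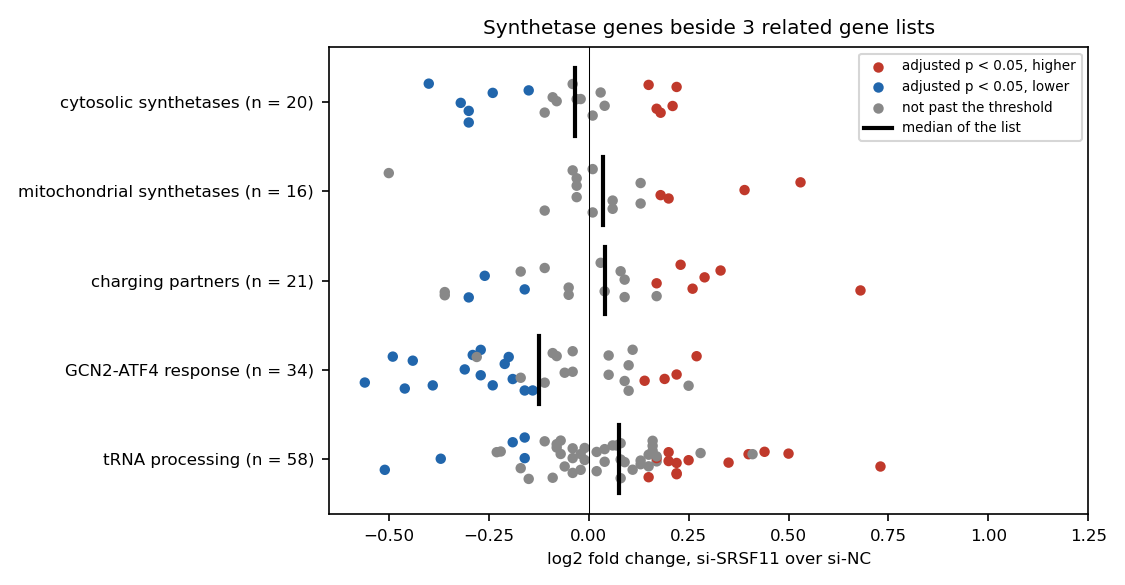
log2 fold change of si-SRSF11 over si-NC (x axis) of each tested gene in 5 lists (lines), with color giving the test result and black bars the list medians. The medians run from -0.13 for the GCN2-ATF4 response to 0.07 for tRNA processing, and every list holds genes on both sides of 0.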

How the data were processed

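The deposited file was 1 table of raw counts per gene, which the authors made from 150 bp paired-end reads without normalization or pooling. The aligner, the counting program and its strand setting are not given in the sources used here; the submitters' processing notes name hg38. All 58735 gene identifiers and lengths matched GENCODE 29, where the length is the union of a gene's exons. Libraries were grouped by their titles (depth 14369525 to 16685719 counts). The test took genes reaching 10 counts in 3 or more libraries (15801) and, after TMM scaling, used edgeR 4.0.16 (limma 3.58.1, R 4.3.3) with glmQLFit and glmQLFTest on condition, with Benjamini-Hochberg adjustment over all tested genes at a threshold of 0.05. The fit was checked on simulated data. Each SE was derived from the gene's quasi-likelihood F value. TPM used the deposited counts and lengths and had no test. An exact two-sided permutation test of 3 against 3 cannot go below 0.1 and was not used for calls. The share of a gene's windows was the share of 100-nucleotide stretches of its principal transcript whose sequence, on either strand, also occurs in a GENCODE 29 transcript of another gene. Promoters were RefSeq entries for GRCh38.p14.

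The members and lists were chosen with earlier results of these data known, so list counts carry no test of their own. Values in every library were given for the 6 cytosolic and 6 mitochondrial members with the smallest adjusted p and for AIMP1, AIMP2, KARS, GARS, HARS, HARS2, WARS and SRSF11; at most 5 genes per related list were named by smallest adjusted p, with ATF4, ASNS, EIF2AK4 and EEF1E1 added. The alternatives were other scalings, other filters, DESeq2 1.42.0, a replicate block and leaving out each library.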

Additional observations from a re-analysis of the deposited data

How the results depend on the processing

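None of the 38 genes changed direction while past the threshold, and 10 of the 16 that passed did so in all 14 alternatives of the test (AARS, MARS, SARS, WARS, YARS, HARS, QARS, EARS2, LARS2 and AIMP2). With library-size scaling, 3 cytosolic and 7 tRNA processing genes were higher, the cytosolic median was -0.07, and 40.9% of all calls were higher instead of 53.6%. With the DESeq2 test, 7 tRNA processing genes were higher and 3 lower. Leaving out 1 library at a time gave 2 to 5 cytosolic genes higher (3 without si-NC replicate 1 or 3, 2 without si-NC replicate 2), 2 to 4 mitochondrial genes higher (2 without si-NC replicate 2), 1 to 3 charging partners lower (1 without si-NC replicate 3 or si-SRSF11 replicate 1), 6 to 11 tRNA processing genes higher (6 without si-NC replicate 3), 2 to 7 lower (2 without si-NC replicate 1 or 3 or si-SRSF11 replicate 2), and a cytosolic median of -0.06 to 0 (0 without si-SRSF11 replicate 1). Per length on the TMM scale, the summed ratios were 0.928 (cytosolic) and 1.08 (mitochondrial); this scale and the principal transcript length were added after seeing the data. Same-numbered libraries deviated together little (correlations 0.00, 0.05 and 0.07, beside -0.06 to 0.01 for other numbers). The study speaks of pairs without saying which libraries form them, and the replicate numbers were not read as a pairing. With the replicate block 4036 genes passed (2147 higher, 1889 lower). The cytosolic (5 higher, 6 lower) and mitochondrial (4 higher, 0 lower) counts were as without it. The cause was not tested. SARS2 had the fewest counts of the 38 genes, at 29 to 54 a library, and the parts of depth and of shared sequence in this were not tested.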
